A study of Oryza sativa with 20 samples.

Results

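The 5 primary wall cellulose synthase genes of rice described here, called the family below, are CESA1 (OS05G0176100), CESA3 (OS07G0424400), CESA5 (OS03G0837100), CESA6 (OS07G0252400) and CESA8 (OS07G0208500). They were taken by gene ID, with earlier results of these data known, from 37829 rice gene IDs measured in 20 RNA sequencing libraries. All 5 were among the 26403 genes that reached 1 FPKM in at least 2 libraries. FPKM counts fragments per kilobase of transcript, scaled to all mapped fragments of the library, so it is a level per length and lets the 5 genes be set side by side.

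Cellulose synthases sit in the plasma membrane and polymerise glucose into the chains that bundle into cellulose microfibrils. In land plants they work as complexes built from several different isoforms. One group of isoforms lays down the primary wall of growing cells, and another group, CESA4, CESA7 and CESA9 in rice, makes the secondary wall of cells that thicken, such as fibres and xylem. In rice, the lamina joint (LJ) connects the sheath to the blade, and the growth and wall thickening of its cells affect the angle between leaf and stem.

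LJ and blade were cut from the first complete leaf of seedlings at 5 stages, S1 to S5, that span the time from the first formation of the joint until the leaf has opened to its angle. With 2 libraries for each tissue and stage there were 10 groups, and every mean below is over n = 2. LJ pieces were shorter than 1 mm and blade pieces shorter than 10 mm, and the seedlings grew in water without a stated treatment. The days of collection were 4, 5, 6, 7 and 9, counted from germination. The day of each stage, the cultivar, and whether replicate libraries hold different plants are not given in the sources used here. P-values therefore measure the spread between libraries, which may be technical.

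FPKM totals over the rice gene IDs ran from 860684 to 1079325, and 18265 to 21695 genes reached 1 FPKM in a library. The correlation between the 2 libraries of a group, across genes on the log2 scale, was lowest in blade at S4 (r = 0.914) and highest in LJ at S1 (r = 0.983). Sequencing depth is unknown. The summed FPKM of LG1 and DL, regulators of ligule and midrib development that marked the LJ, was 9.17 to 28.5 in the LJ libraries and 1.35 to 5.10 in the blade libraries, with no overlap. For LG1 alone the libraries of the tissues overlapped at S2, where it was not called by limma (adjusted p = 0.73). For DL alone both LJ libraries were above both blade libraries at every stage. At S5, however, DL was at only 0.521 FPKM in LJ and was not called (0.28). The tissues are mixtures, and in such samples fewer cells of a type and less RNA per cell cannot be told apart.

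All 5 genes were detected in every library, at 2.92 FPKM or more, and most of them were highest at S3. CESA1 was measured in LJ at 48.9 and 45.2 FPKM at S1, 79.3 and 53.3 at S2, 234 and 161 at S3, 43.4 and 112 at S4, and 68.5 and 58.5 at S5. The blade values of CESA1 were 109 and 153 FPKM at S1, 153 and 148 at S2, 223 and 268 at S3, 18.4 and 51.6 at S4, and 17.0 and 24.1 at S5. The 4 libraries of S3 were its 4 highest, and the 4 lowest were all from blade at S4 and S5 or from LJ at S4.

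CESA3 in LJ was at 10.9 and 12.1 FPKM at S1, 13.1 and 9.47 at S2, 55.7 and 39.5 at S3, 67.2 and 140 at S4, and 36.6 and 59.8 at S5. Its blade values were 28.2 and 39.9 FPKM at S1, 41.2 and 31.0 at S2, 115 and 122 at S3, 37.7 and 59.4 at S4, and 11.0 and 21.8 at S5. CESA3 thus had its highest mean in blade at S3 but, within LJ, at S4, one stage after the other 4 members. Its 2 LJ libraries at S4 differed from each other more than those of any other LJ stage.

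CESA5 in LJ was at 16.9 and 16.3 FPKM at S1, 26.4 and 18.9 at S2, 72.0 and 52.7 at S3, 15.5 and 13.5 at S4, and 17.3 and 19.4 at S5. In blade CESA5 was at 29.9 and 42.3 FPKM at S1, 38.5 and 47.7 at S2, 35.5 and 51.3 at S3, 3.46 and 2.92 at S4, and 6.01 and 7.26 at S5. Blade showed no peak of CESA5 at S3, since the values of S1, S2 and S3 overlapped, and blade at S4 held its lowest values of the series.

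CESA6 in LJ was at 35.7 and 26.1 FPKM at S1, 35.0 and 27.7 at S2, 113 and 69.9 at S3, 31.9 and 43.8 at S4, and 28.2 and 31.6 at S5. In blade CESA6 was at 39.8 and 46.7 FPKM at S1, 47.9 and 54.8 at S2, 78.7 and 83.3 at S3, 10.6 and 14.3 at S4, and 7.56 and 8.68 at S5. The LJ values of S1, S2, S4 and S5 lay in one narrow range below those of S3, whereas blade at S4 and S5 lay below every other library.

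CESA8 in LJ was at 4.85 and 4.64 FPKM at S1, 9.37 and 6.24 at S2, 51.4 and 43.2 at S3, 16.3 and 31.7 at S4, and 15.1 and 22.9 at S5. In blade CESA8 was at 24.9 and 33.4 FPKM at S1, 33.5 and 29.9 at S2, 54.6 and 79.2 at S3, 9.20 and 13.7 at S4, and 3.59 and 8.80 at S5. Its lowest means were therefore in LJ at S1 and in blade at S5. The highest level over the 20 libraries was 15.8 times the lowest for CESA1, 14.8 times for CESA3, 24.7 times for CESA5, 14.9 times for CESA6 and 22.1 times for CESA8.

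**Figure D1:**
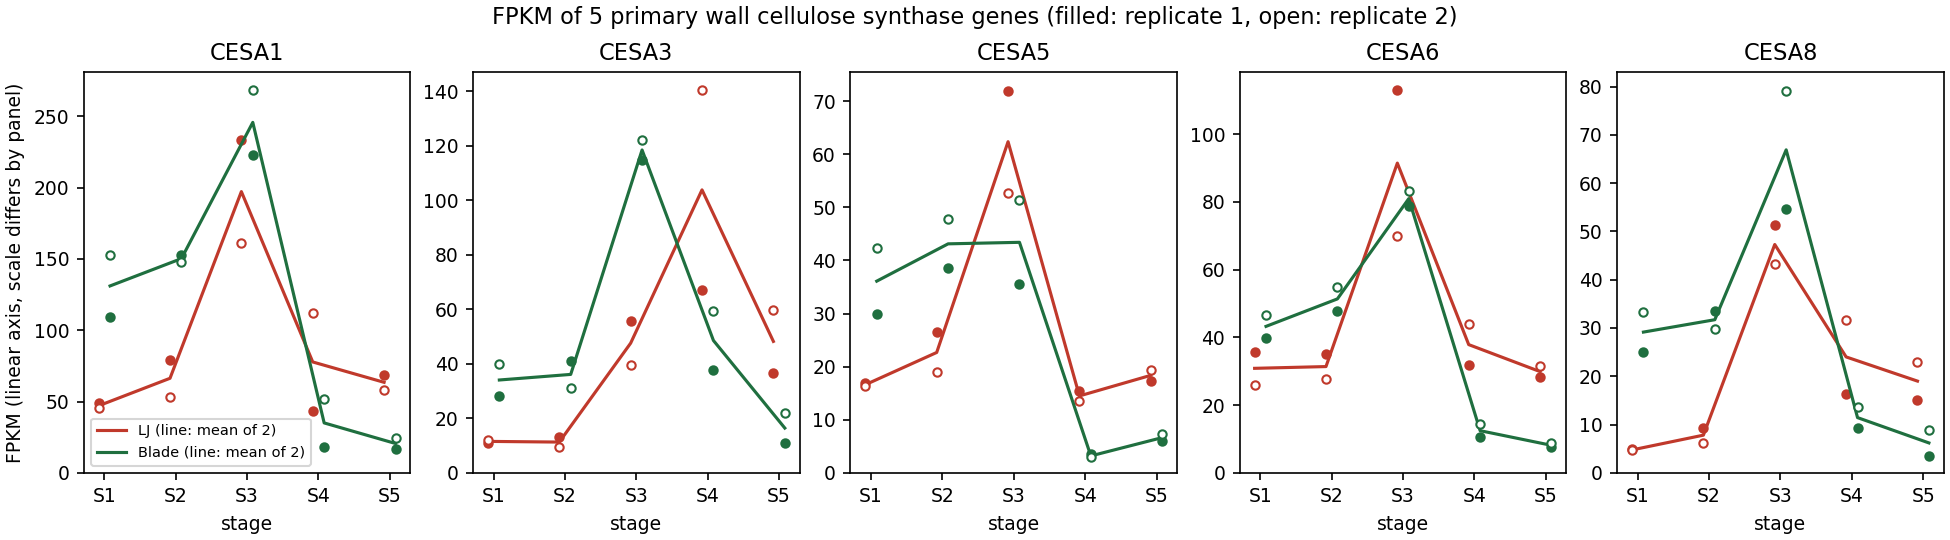
FPKM of each primary wall cellulose synthase gene (linear y axis, scale differs by panel) against stage in LJ (red) and blade (green); filled points are replicate 1, open points replicate 2, and lines join the means of the 2 libraries. LJ starts below blade and ends above it in each panel, and CESA3 in LJ has its highest mean, 104 FPKM, at S4 rather than S3.

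Ordered by group mean, CESA1 was highest in blade at S3 (246 ± 32.0 FPKM, SD) and then in LJ at S3 (197 ± 51.3). CESA3 was highest in blade at S3 (118 ± 5.35) and then in LJ at S4 (104 ± 51.7), and CESA8 in blade at S3 (66.9 ± 17.4) and then in LJ at S3 (47.3 ± 5.80). LJ at S3 led for CESA5 (62.4 ± 13.6) and CESA6 (91.5 ± 30.5), each followed by blade at S3 (43.4 ± 11.2 and 81.0 ± 3.23). Neighbours in these orders were set against the distance between their 2 libraries. Of 9 neighbouring pairs, the means were at least the larger such distance apart in 1 for CESA1, CESA3 and CESA8 and in 4 for CESA5 and CESA6, so most neighbouring groups did not differ beyond their spread, the leading pair of each gene included.

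The make-up of the family was read as each gene's share of the summed FPKM of the 5 genes, which does not depend on how libraries are scaled. CESA2, a further cellulose synthase, was not part of this sum or of the ranks. CESA1 held the largest share at S1, S2 and S3 in both tissues, with 4 of 4 libraries at each of these stages. Its mean share was 42.5%, 47.3% and 44.2% in LJ and 47.8%, 48.1% and 44.2% in blade. At S3 the 4 libraries of both tissues lay within 43.9% to 44.4%.

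CESA3 led the family at S4 instead. Its share in LJ was 10.5% at S1, 8.10% at S2, 10.7% at S3, 39.8% ± 1.82 (SD) at S4 and 26.6% at S5. In blade the share was 12.4%, 11.5%, 21.4%, 44.7% ± 3.95 and 27.6% at the same stages. CESA3 ranked first in 5 of the 20 libraries, all 4 of S4 and LJ replicate 2 of S5, and CESA1 ranked first in the other 15.

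CESA6 had the second largest share in all 4 libraries of S1 and S2. Its mean share in LJ was 27.7%, 22.7%, 20.3%, 15.6% and 16.7% from S1 to S5, and in blade 16.0%, 16.4%, 14.7%, 11.7% and 14.5%. At S1 the LJ libraries, 30.4% and 25.0%, lay above the blade libraries, 17.1% and 14.8%.

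CESA5 held the last rank in all 4 libraries of S4, at 6.42% of the family in LJ and 3.21% in blade, against 15.0% and 13.2% at S1. CESA8 was last in all 4 libraries of S1 and S2. In LJ its share was 4.29% at S1, 5.56% at S2, 10.8% at S3, 9.32% at S4 and 10.5% at S5, while in blade the means stayed between 10.1% and 11.9%. The LJ libraries of S1 and S2 were thus the ones that stood apart for CESA8.

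**Figure D2:**
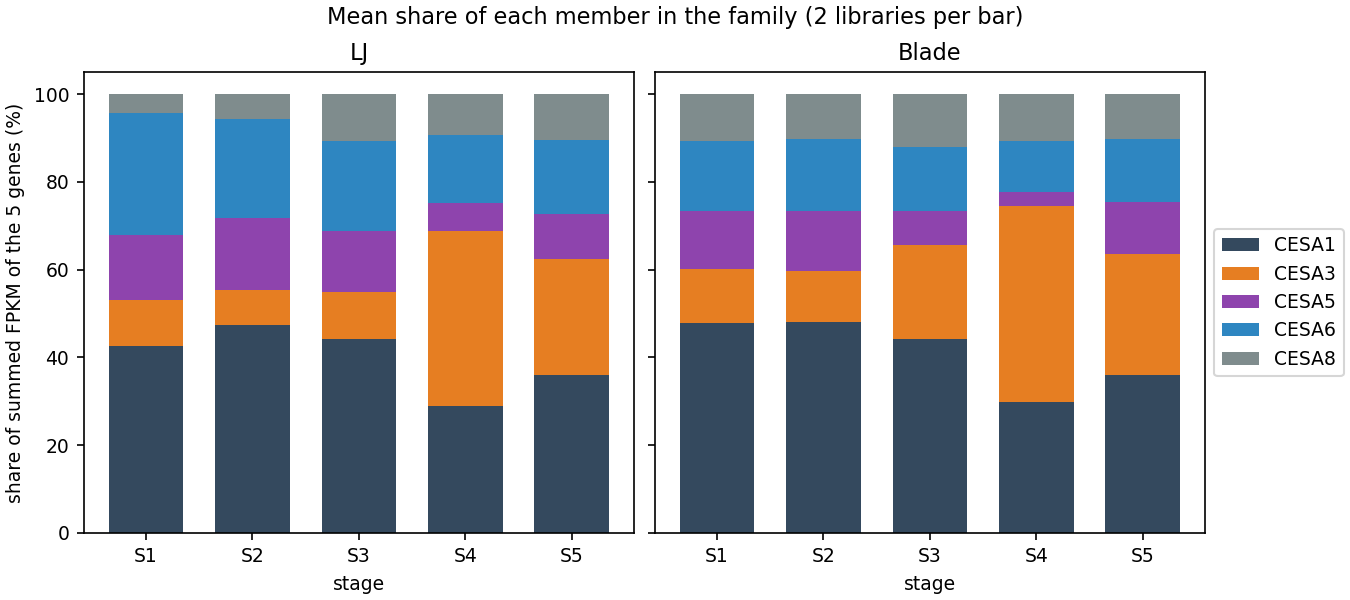
Mean share (%) of each of the 5 genes in their summed FPKM, by stage, in LJ (left) and blade (right); each bar is the mean of 2 libraries. CESA1 takes 42.5% to 48.1% at S1 to S3, and CESA3 takes 39.8% of LJ and 44.7% of blade at S4.

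Some orders held in every library. CESA1 was above CESA5, CESA6 and CESA8 in 20 of 20 libraries, and CESA6 above CESA5 in 20 of 20. CESA3 and CESA6 were each above CESA8 in 19 of 20, but CESA5 was above CESA8 in 12 of 20 only.

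The ratio of CESA3 to CESA1 ran from 0.223 to 0.269 in the 4 libraries of S1, from 0.165 to 0.269 at S2, from 0.238 to 0.513 at S3, from 1.15 to 2.04 at S4 and from 0.534 to 1.02 at S5. All 4 libraries of S4 lay above all others. The ratio of CESA3 to CESA5 spanned more, from 0.495 to 1.07 at S2 and from 4.34 to 20.4 at S4, and its highest value was 41.1 times its lowest. CESA6 over CESA5 moved less, from 1.10 to 2.12 at S1 and from 2.06 to 4.89 at S4. These shares and ratios are descriptions, and no test was made of a difference between members.

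**Figure D3:**
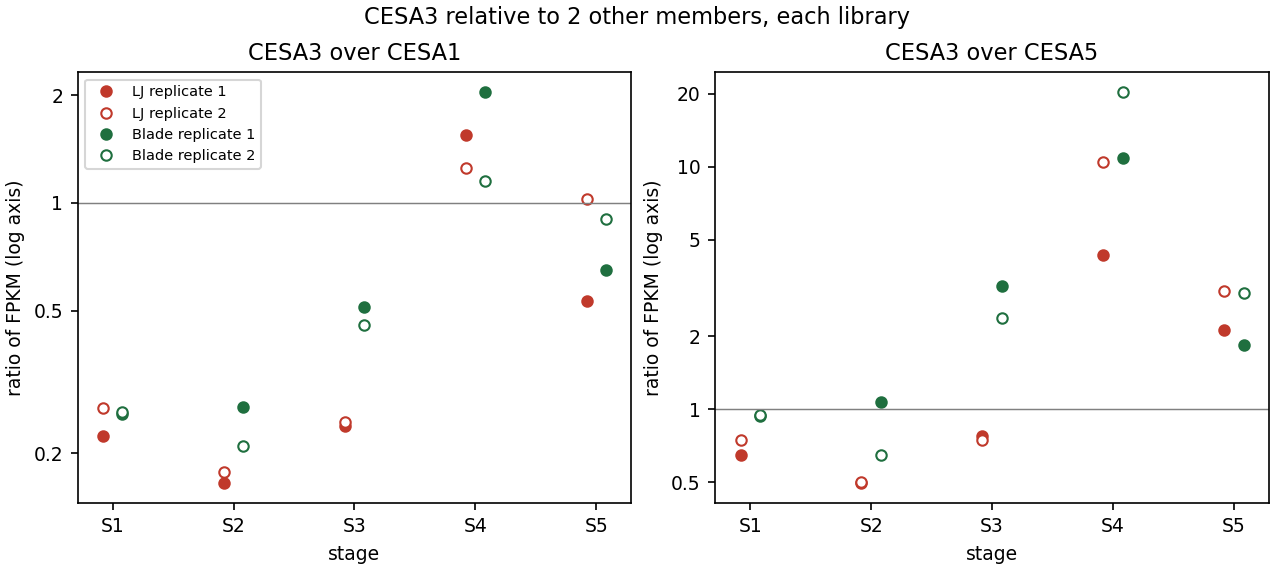
Ratio of CESA3 to CESA1 (left) and of CESA3 to CESA5 (right) in each library against stage, on log y axes; red is LJ, green blade, filled replicate 1 and open replicate 2, and the grey line marks equal FPKM. The 4 libraries of S4 lie at 1.15 to 2.04 on the left and at 4.34 to 20.4 on the right.

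LJ and blade were compared at each stage on log2(FPKM + 1), a scale that understates the change of low genes, in 1 limma fit over all genes and groups. A gene was called at an adjusted p (Benjamini-Hochberg over the 26403 genes) under 0.05. At S1 the LJ values of all 5 genes lay below both blade values, and 4 of 5 genes were called lower, where 10.6% of all genes were called lower. The share of all genes whose libraries lay apart was not counted, here or elsewhere, so such separation only describes the members. CESA8 differed most, by -2.38 ± 0.39 (log2, SE; adjusted p = 8.2e-04), then CESA3 by -1.46 ± 0.41 (0.023), CESA1 by -1.44 ± 0.47 (0.049) and CESA5 by -1.06 ± 0.27 (0.016). CESA6 differed by -0.49 (95% interval -1.09 to 0.12, adjusted p = 0.27) and was not called. The CESA8 call held without any 1 library. Those of CESA3, without any 1 of the 4 libraries of S1, of CESA5, without 3 of them (all but blade replicate 1), and of CESA1, without any 1 of 16 libraries (all but those of S4), were lost, with adjusted p up to 0.17, 0.158 and 0.252, each without blade replicate 2 of S1. The summed FPKM of 4 KNOX genes of meristem identity (OSH1, OSH6, OSH15 and OSH71) was 30.4 and 8.18 in LJ at S1 and at most 0.78 in any blade library, and their part in the S1 differences was not tested.

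At S2 the libraries of LJ were again below those of blade for 5 of 5 genes, and 3 were called lower, against 12.4% of all genes. These were CESA8 (-1.91 ± 0.39, adjusted p = 0.0034), CESA3 (-1.60 ± 0.41, 0.012) and CESA5 (-0.91 ± 0.27, 0.026). CESA1 (-1.20, adjusted p = 0.082) and CESA6 (-0.70, 0.090) were not called, but passed in a fit that pairs each LJ library with the blade library of its stage and replicate number (0.0069 and 0.019), in which 21.3% of all genes were called lower. Without LJ replicate 2 or blade replicate 1 of S2 the CESA3 call was lost (adjusted p up to 0.0933), and without either of these or blade replicate 2 that of CESA5 (up to 0.172).

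At S3, where most of the genes had their highest means, 1 member was called, CESA3, which was lower in LJ (-1.32 ± 0.41, adjusted p = 0.039), where 5.77% of all genes were called lower. Its call was lost without any 1 of the 4 libraries of S3 or of the 2 LJ libraries of S1, with adjusted p up to 0.256. The other differences were -0.33 for CESA1 (95% interval -1.33 to 0.66), -0.47 for CESA8 (-1.32 to 0.37), 0.13 for CESA6 (-0.47 to 0.74) and 0.52 for CESA5 (-0.06 to 1.10).

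At S4 the estimates of all 5 genes were higher in LJ, as those of CESA5 and CESA6, not called, already were at S3. CESA5 was higher in LJ by 1.89 ± 0.27 (adjusted p = 8.0e-04) and CESA6 by 1.53 ± 0.28 (0.0042), so 2 of 5 genes were called higher, where 6.7% of all genes were. CESA1 (1.15), CESA3 (1.02) and CESA8 (0.96) were not called, with adjusted p = 0.18, 0.17 and 0.18, but each passed in the paired fit (0.018, 0.013 and 0.022), in which 17.1% of all genes were called higher. The LJ and blade libraries overlapped for CESA1 only. Replicate 2 of S4 held 2.58 times the CESA1 of replicate 1 in LJ and 2.80 times in blade.

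The blade libraries of S4 differed in other ways as well. In blade replicate 2 the 50 most abundant genes took 44.2% of all FPKM, against 27.3% in replicate 1, and the secondary wall genes were also higher in replicate 2 of both tissues, as given further on. Their part in the result was not tested.

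At S5 all 5 genes were called higher in LJ, where 7.63% of all genes were called higher, and no LJ library overlapped a blade library. CESA6 differed by 1.76 ± 0.28 (adjusted p = 9.5e-04), CESA1 by 1.59 ± 0.47 (0.046), CESA8 by 1.55 ± 0.39 (0.022), CESA3 by 1.53 ± 0.41 (0.028) and CESA5 by 1.35 ± 0.27 (0.0051). The median over all genes was 0.15. The summed KNOX genes were also higher in LJ at S5, at 5.81 and 3.59 FPKM against 0.528 and 0.312 in blade. OSH71 alone, at 5.23 and 3.21 FPKM in LJ, made up most of this sum and was called by limma (1.85, adjusted p = 0.0019). OSH1 was at 0 in both tissues, and the part of the KNOX genes in the S5 differences was not tested. The CESA6 call held without any 1 library, and those of CESA3, CESA5 and CESA8 were lost without LJ replicate 2 or blade replicate 1 of S5 (adjusted p up to 0.282, 0.061 and 0.266). That of CESA1 was lost without any 1 of 16 libraries, all but those of S4 (up to 0.27). Upper quartile scaling or quantile normalization ended the calls of CESA1, CESA3 and CESA8 at S5 and that of CESA1 at S1.

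**Figure D4:**
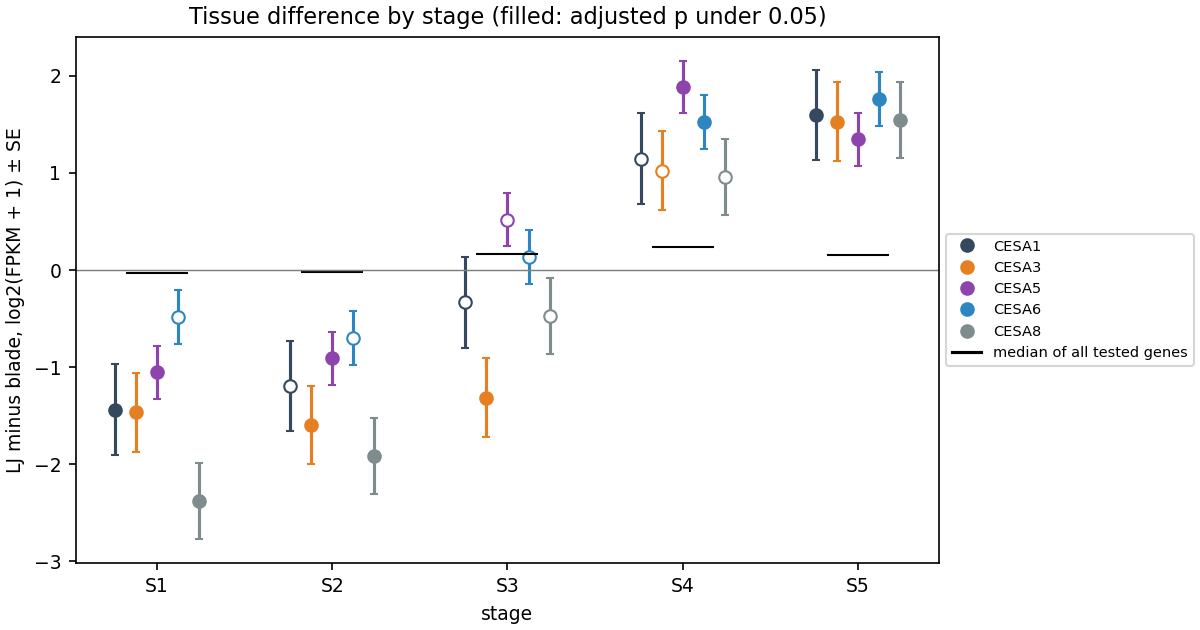
Difference LJ minus blade in log2(FPKM + 1) ± SE for the 5 genes at each stage; filled points have an adjusted p under 0.05, and black bars are the median of all tested genes. Every gene is below 0 at S1 and S2 and above 0 at S4 and S5, where the differences reach 1.89 and 1.76.

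The turn itself was tested as the tissue difference at S5 minus that at S1. It was positive and called for all 5 genes, where 12.3% of all genes were called higher and the median over all genes was 0.17. CESA8 moved by 3.93 ± 0.56 (adjusted p = 2.6e-04), CESA1 by 3.03 ± 0.66 (0.0059), CESA3 by 2.99 ± 0.57 (0.0026), CESA5 by 2.40 ± 0.38 (6.6e-04) and CESA6 by 2.25 ± 0.40 (0.0014). All 5 calls held under each alternative run and without any 1 library. This contrast was added after the values had been seen.

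The summed FPKM of the family shows the same turn in plain levels. In LJ it was 111 ± 9.02 at S1, 139 ± 33.6 at S2, 446 ± 113 at S3, 258 ± 118 at S4 and 179 ± 18.7 at S5. In blade it was 274 ± 58.9, 313 ± 2.16, 556 ± 69.1, 111 ± 44.2 and 57.9 ± 18.0 (SD). The LJ mean was below that of blade up to S3 and above it at S4 and S5.

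Changes between neighbouring stages were then tested within each tissue. From S1 to S2 none of the 5 genes was called by limma in LJ, where 1.66% of all genes were called, and none in blade, where 2.78% were. None had an unadjusted p under 0.05 either. In LJ the estimates ran from -0.04 for CESA3 to 0.59 for CESA8, and in blade from 0.09 for CESA3 to 0.26 for CESA5.

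From S2 to S3 all 5 genes rose in LJ, where 15.2% of all genes did. CESA8 rose by 2.47 ± 0.39 (adjusted p = 4.8e-04), CESA3 by 1.98 ± 0.41 (0.0030), CESA1 by 1.56 ± 0.47 (0.026), CESA6 by 1.48 ± 0.28 (0.0017) and CESA5 by 1.42 ± 0.27 (0.0018). In each gene both libraries of S3 were above both of S2. The CESA1 call was lost without LJ replicate 2 of S2 or replicate 1 of S3 (adjusted p up to 0.205) and under upper quartile scaling or quantile normalization.

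In blade over the same step CESA3 was the 1 gene called, higher by 1.70 ± 0.41 (adjusted p = 0.017), where 5.13% of all genes were called higher. The other members were not called, CESA8 (1.03, adjusted p = 0.11), CESA1 (0.70, 0.38), CESA6 (0.65, 0.16) and CESA5 (-0.01, 95% interval -0.59 to 0.58), and the difference between CESA3 and these was not tested. The libraries of S3 were above those of S2 for every gene but CESA5. Without blade replicate 2 of S2 or either blade library of S3 the CESA3 call was lost (adjusted p up to 0.148).

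From S3 to S4 the genes parted in LJ. CESA5 fell by 2.02 (-2.02 ± 0.27, adjusted p = 3.8e-05), CESA1 by 1.46 (-1.46 ± 0.47, 0.020), CESA6 by 1.23 (-1.23 ± 0.28, 0.0027) and CESA8 by 1.02 (-1.02 ± 0.39, 0.048), where 29.1% of all genes fell. CESA3 instead differed by 1.04 ± 0.41 in the other direction, with both libraries of S4 above both of S3. It missed the threshold in the unpaired fit and passed with paired libraries (adjusted p = 0.033). The CESA1 call was lost without LJ replicate 1 of S3 or of S4 (up to 0.229), and that of CESA8 without any 1 of 15 libraries (up to 0.347). Those 15 were all but LJ replicate 2 of S4 and the blade libraries of S4 and S5. Under upper quartile scaling or quantile normalization both calls were lost, and CESA3 passed.

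In blade all 5 genes fell from S3 to S4, where 24.9% of all genes did. CESA5 fell by 3.39 (-3.39 ± 0.27, adjusted p = 4.6e-07), CESA1 by 2.94 (-2.94 ± 0.47, 2.1e-04), CESA6 by 2.62 (-2.62 ± 0.28, 6.3e-06), CESA8 by 2.45 (-2.45 ± 0.39, 2.3e-04) and CESA3 by 1.30 (-1.30 ± 0.41, 0.023). Every library of S4 was below both of S3. The CESA3 call was lost without either blade library of S3 or replicate 1 of S4 (adjusted p up to 0.139), and under upper quartile scaling or quantile normalization.

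From S4 to S5 none of the 5 genes was called in LJ by limma, where 28.5% of all genes were, and CESA3 was the 1 gene with an unadjusted p under 0.05. It differed by -1.04 ± 0.41 (adjusted p = 0.070) and passed with paired libraries (0.049). In blade CESA3 fell by 1.54 (-1.54 ± 0.41, adjusted p = 0.010), where 8.87% of all genes fell. CESA5 rose by 0.86 ± 0.27 (adjusted p = 0.025), where 23.8% rose, but missed the threshold with paired libraries (0.052). Without 1 library the CESA3 call was lost for blade replicate 2 of S4 and replicate 1 of S5 (up to 0.129), and the CESA5 call for these and replicate 2 of S5 (up to 0.138). Upper quartile scaling or quantile normalization ended the CESA5 call and brought CESA6 and CESA8 past the threshold as lower.

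Whether a step differed between the tissues was tested as LJ change minus blade change. CESA3 from S3 to S4 was the 1 call among 20 tests, at 2.34 ± 0.57 (adjusted p = 0.030), where 4.03% of all genes were called higher at this step. It rests on a difference of 1.04 between the stages in LJ and a fall by 1.30 in blade. The estimates for the other members at the same step were 1.48 for CESA1 (adjusted p = 0.27), 1.43 for CESA8 (0.18), 1.39 for CESA6 (0.060) and 1.37 for CESA5 (0.056), and the difference between CESA3 and these was not tested.

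In the paired fit 7 of the 20 tests passed, but that fit also called more of all genes, 11.1% higher at S3 to S4 and 8.9% at S2 to S3, against 4.03% and 2.84% unpaired. All 5 members passed it at S3 to S4 (CESA1 0.034, CESA5 0.0095, CESA6 0.0066 and CESA8 0.020), and CESA5 (0.0099) and CESA8 (0.026) at S2 to S3. The unpaired CESA3 call was lost without LJ replicate 2 of S3 or S4, either blade library of S3 or blade replicate 1 of S4 (adjusted p up to 0.148), and under upper quartile scaling, quantile normalization or a fit on the 4 groups alone. In the unpaired fit no member was called at S1 to S2, S2 to S3 or S4 to S5, where limma called 0.114%, 3.28% and 0.36% of all genes. At S2 to S3 CESA5 (1.43 ± 0.38) and CESA8 (1.44 ± 0.56) had unadjusted p = 0.0022 and 0.021, and at the other steps no member was under 0.05.

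LJ was also set against blade one stage earlier. LJ at S2 was lower than blade at S1 for CESA8 (-1.79 ± 0.39, adjusted p = 0.012) and CESA3 (-1.51 ± 0.41, 0.035), 2 of 5 genes, where 6.37% of all genes were lower. Both calls were lost without LJ replicate 2 of S2 or blade replicate 2 of S1 (adjusted p up to 0.127 and 0.279), that of CESA3 also without LJ replicate 1 of S2 or blade replicate 1 of S1.

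Between LJ at S3 and blade at S2 none of the 5 genes was called by limma, where 1.31% of all genes were, and only CESA6 had an unadjusted p under 0.05 (0.014). The differences were 0.78 for CESA6 (95% interval 0.18 to 1.38), 0.56 for CESA8 (-0.28 to 1.40), 0.51 for CESA5 (-0.07 to 1.09), 0.38 for CESA3 (-0.49 to 1.25) and 0.37 for CESA1 (-0.63 to 1.37). Intervals of this width leave room for a difference of more than 1 on the log2 scale.

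LJ at S4 was lower than blade at S3 for 4 genes, where 16.4% of all genes were lower, namely CESA1 (-1.79 ± 0.47, adjusted p = 0.010), CESA5 (-1.50 ± 0.27, 8.2e-04), CESA8 (-1.49 ± 0.39, 0.011) and CESA6 (-1.09 ± 0.28, 0.0092). CESA3 was not, at -0.28 (95% interval -1.15 to 0.59). The calls of CESA1, CESA6 and CESA8 were lost without LJ replicate 1 of S4 or blade replicate 2 of S3 (adjusted p up to 0.136, 0.0885 and 0.129).

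LJ at S5 was higher than blade at S4 for CESA5 (2.21 ± 0.27, adjusted p = 3.6e-05) and CESA6 (1.21 ± 0.28, 0.0035), where 36.2% of all genes were higher and the median over all genes was 0.53. Thus 2 of 5 members were called, a share near that of all genes. CESA1 (1.01, adjusted p = 0.094), CESA8 (0.68, 0.18) and CESA3 (-0.02, 95% interval -0.89 to 0.85) were not called. CESA6 did not pass under upper quartile scaling or quantile normalization.

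Over the 20 libraries the 5 genes moved together to very different degrees. Pearson's r of log2(FPKM + 1), given as a description since the points share tissues, stages and scaling, ran from 0.208 to 0.943 over the 10 pairs, with a median of 0.802. CESA1 and CESA6 were the closest pair (0.943), then CESA5 and CESA6 (0.910). CESA3 and CESA5 were the least alike (0.208), followed by CESA3 with CESA6 (0.463) and with CESA1 (0.541), and CESA3 was closest to CESA8 (0.815).

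Likeness to the secondary wall genes differed among the members. CESA3 had r = 0.820 with CESA9, 0.739 with CESA4 and 0.702 with CESA7, and 0.795 with BC1, a COBRA-like protein needed for cellulose assembly in thick walls. CESA5 had 0.349 with CESA9, 0.395 with CESA4, 0.517 with CESA7 and 0.514 with BC1. CESA8 was above CESA3 for 3 of these genes, at 0.766 with CESA4, 0.812 with CESA7 and 0.863 with BC1. For CESA7, CESA1 (0.763) and CESA6 (0.719) were also above CESA3. CESA1 had 0.676 with CESA9, 0.703 with CESA4 and 0.788 with BC1. CESA6 had 0.603 with CESA9, 0.653 with CESA4 and 0.719 with BC1. SUS1, a sucrose synthase that can supply UDP-glucose, had r = 0.818 with CESA5 and -0.06 with CESA3. CESA2, a further cellulose synthase, ran from 0.694 to 15.2 FPKM and had r = 0.777 with CESA5 and -0.13 with CESA3. It was above CESA8 in both LJ libraries of S1 (10.1 and 10.1 FPKM against 4.85 and 4.64) but below CESA8 in most other libraries.

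**Figure D5:**
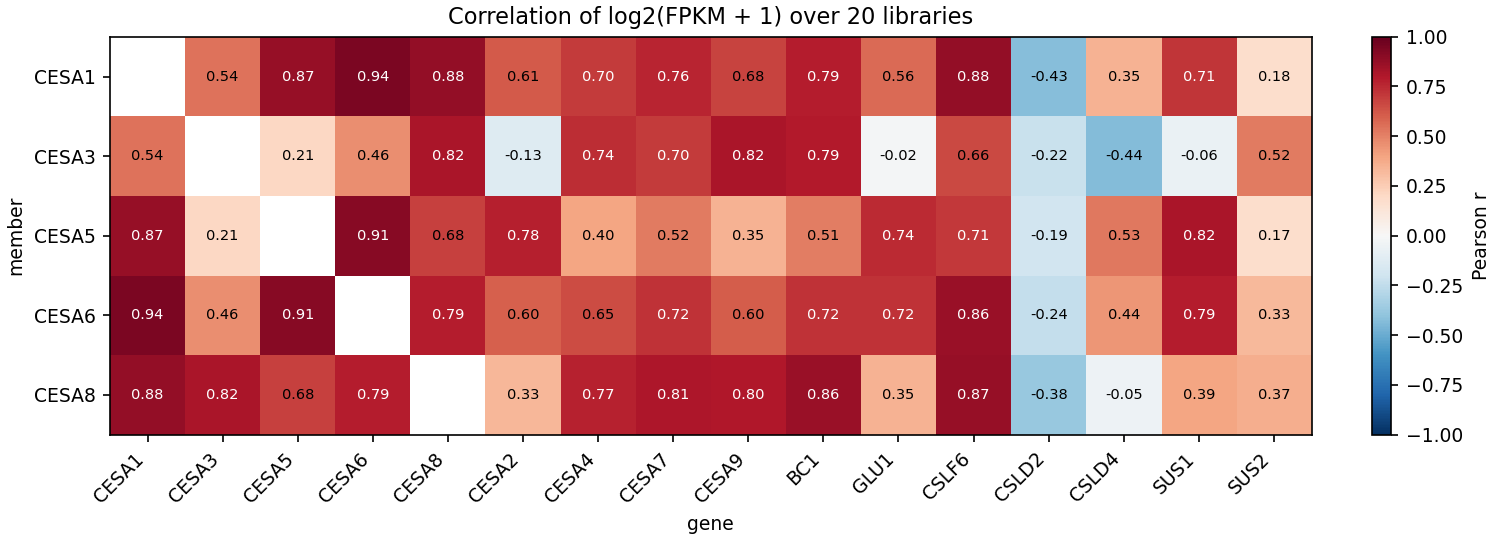
Pearson r of log2(FPKM + 1) over the 20 libraries between each of the 5 genes (rows) and the members and 11 related genes (columns); white diagonal cells are a gene with itself. CESA3 has its highest values with CESA9, CESA8 and BC1 and its lowest with CSLD4, CESA2, CSLD2, SUS1 and GLU1.

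The tested genes outside the family most like each member, by the same r, were OS05G0391200 for CESA1 (0.959) and OS01G0894600 for CESA3 (0.966). The closest genes to CESA5 and CESA6 had r = 0.960 and 0.967. For CESA8 they were OS07G0208533 (0.987) and OS07G0208566 (0.980), whose IDs are numbered directly after its own. OS07G0208533 ran from 11.6 to 301 FPKM and was above CESA8 in 20 of 20 libraries, at 2.66 to 4.92 times its level. Whether these IDs overlap CESA8 was not analysed here, and without strand the reads of overlapping genes cannot be told apart, which bears on the level and rank of CESA8. These neighbours were singled out after their values were seen.

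A list of 16 other genes of cellulose synthesis, assembly and related walls was counted beside the family. The list holds other cellulose synthases, cellulose synthase-like genes, sucrose synthases and assembly factors, and 15 were tested. LJ minus blade was called lower for 4 of 15 at S1 and 6 at S2, where 10.6% and 12.4% of all genes were called lower. It was called higher for 1 at S3, 4 at S4 and 4 at S5, where 11.2%, 6.7% and 7.63% of all genes were, with no list gene called in the other direction at any stage. The tissue difference at S5 minus that at S1 was higher for 5 of 15, where 12.3% of all genes were higher, and lower for none. The median LJ minus blade over the 15 genes was -0.61 at S1 and 0.74 at S5, where it was -1.44 and 1.55 over the 5 members and -0.03 and 0.15 over all genes.

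CSLF6, which makes the mixed-linkage glucan of grass walls, was measured in LJ at 7.08 and 5.41 FPKM at S1 and 7.58 and 9.52 at S5, and in blade at 23.0 and 20.6 at S1 and 1.99 and 2.39 at S5. Its LJ libraries were thus below those of blade at S1 and above them at S5. LJ minus blade was -1.66 ± 0.26 at S1 (adjusted p = 5.8e-04) and 1.58 ± 0.26 at S5 (0.0013), and the difference between these was 3.24 ± 0.37 (5.2e-05). Its r was 0.876 with CESA1 and 0.872 with CESA8.

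From S2 to S3 in LJ 7 of 15 rose and 1 fell, where 15.2% and 8.55% of all genes did, with CESA7 at 4.04 ± 0.47 (adjusted p = 3.5e-05) and CESA4 at 3.37 ± 0.51 (3.0e-04). From S3 to S4 none rose, while 7 fell in LJ and 12 in blade, where 29.1% and 24.9% of all genes fell, with SUS1 at -4.41 ± 0.49 in LJ (8.3e-06) and -5.42 ± 0.49 in blade (1.5e-06). In LJ the secondary wall genes were not among those that fell at this step. From S4 to S5 they fell in LJ, with CESA7 at -4.87 ± 0.47 (8.8e-06) and CESA4 at -4.25 ± 0.51 (5.2e-05).

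Summed FPKM of CESA4, CESA7, CESA9 and BC1 in LJ was 5.55 and 6.12 at S1, 5.33 and 5.50 at S2, 159 and 71.4 at S3, 51.7 and 125 at S4, and 0.549 and 2.08 at S5. The blade sums were 35.3 and 33.3 at S1, 95.5 and 45.6 at S2, 227 and 191 at S3, 24.8 and 60.2 at S4, and 0.223 and 0.596 at S5. The sum was thus high at S3 and S4 in LJ, where CESA3 was high, and near 0 at S5, where CESA3 remained at 36.6 and 59.8 FPKM. Their part in the CESA3 values was not tested.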

How the data were processed

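Per the submitters' processing notes, the tools were CASAVA 1.8, Trimmomatic 0.36, TopHat2 2.1.1 and Cufflinks 2.2.1 with the rice build IRGSP-1.0; their settings and the strand setting are not given in the sources used here. Libraries were made with the NEBNext Ultra kit, per the labels' protocols. The authors deposited one FPKM value per feature and library. Of 82632 features, 44803 without a rice gene ID were left out. Among 63060 low values, 24.6% were whole multiples of one read within 0.1 reads, so no read counts were recovered.

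Genes with at least 1 FPKM in at least 2 libraries (26403) were analysed as log2(FPKM + 1), with a pseudocount of 1, in limma 3.58.1 (R 4.3.3; trend, 10 groups in one fit, 10 residual degrees of freedom). P-values were adjusted by Benjamini-Hochberg over all tested genes in each of 22 contrasts, and the threshold was 0.05. On simulated data of 26403 genes, 200 of them changed, the contrast of LJ with blade at S5 called 67% of the genes changed 4-fold and 14% of those changed 2-fold, and 12.0% of its calls were false. The tissue difference in the S3 to S4 change called 26% and 1%, and 6.90% of its calls were false. Libraries were drawn independently in this simulation, and far fewer genes were changed than were called in the data for either contrast. The percentages therefore need not hold for the data.

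Replicate numbers paired LJ with blade. Across genes, the differences between replicates 1 and 2 correlated at 0.213 to 0.774 between LJ and blade of the same stage, over the 5 stages. Between different stages of the same tissue they correlated at -0.388 to 0.204. The correlation between LJ and blade of different stages was not computed. The paired fit kept that pair as a block, with a correlation of 0.495.

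The 5 members and all lists were chosen with earlier results of these data known. The rule for names was all 5 members, the related genes of the list, and the genes most alike. Gene symbols were checked by chromosome and gene order in a RefSeq table of another build. All 5 members and 12 of 16 related genes passed, and the other 4 had no symbol there and are counted by ID; 3 further marker loci without a symbol are not used here. No sequence was analysed here.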

Additional observations from a re-analysis of the deposited data

Results flagged for a closer look

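For 5 genes the tissue difference itself differed between stages, by a contrast that was added after the values had been seen. In this contrast 12.3% of all genes were called higher. LJ minus blade at S5 minus that at S1 was 3.03 for CESA1, 2.99 for CESA3, 2.40 for CESA5, 2.25 for CESA6 and 3.93 for CESA8, in log2(FPKM + 1), with limma adjusted p = 0.0059, 0.0026, 6.6e-04, 0.0014 and 2.6e-04. LJ libraries were below both blade libraries at S1 and above both at S5 for all 5. The share of all genes with this pattern was not counted. The change of CESA3 from S3 to S4 was 2.34 higher in LJ than in blade (adjusted p = 0.030).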

How the results depend on the processing

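Calls over the 5 genes were counted for LJ against blade (15 of 25 called), steps within a tissue (17 of 40), LJ against blade a stage earlier (8 of 20), tissue differences in a step (1 of 20) and the tissue difference at S5 minus S1 (5 of 5). With each LJ library paired to its blade library (replicate block) these counts were 20, 18, 8, 7 and 5, and the paired fit changed no member's call beside those named above. A fit on only the groups compared left 7, 7, 2, 0 and 5. The 7 of the tissue comparison were the 4 calls at S1 and those of CESA1, CESA5 and CESA6 at S5; the 7 steps were CESA3 and CESA8 from S2 to S3 and CESA5 from S3 to S4 in LJ, and CESA1, CESA5, CESA6 and CESA8 from S3 to S4 in blade; the 2 others were CESA5 of LJ at S4 against blade at S3 and of LJ at S5 against blade at S4. The count of tissue differences in a step was 2 with a pseudocount of 0.1, 2 with no filter, and 0 under upper quartile scaling as well as 0 after quantile normalization; CESA5 from S3 to S4 was the second call. Without a filter the calls of CESA1 at S1 and S5, CESA3 at S3, CESA8 in LJ from S3 to S4 and CESA3 of LJ at S2 against blade at S1 were lost, and a pseudocount of 0.1 ended that of CESA1 at S1 and of CESA8 from S3 to S4 in LJ. Both rescalings ended the call of CESA3 in LJ at S2 against blade at S1. Leaving out 1 library gave 10 to 17, 14 to 18, 5 to 9, 0 to 3 and 5 to 5.

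With a filter at 5 FPKM the counts were 15, 18, 8, 1 and 5, and with the replicate number as an additive block 15, 18, 8, 1 and 5; in both, CESA3 in LJ from S3 to S4 passed. Of 880 values under the 8 alternatives 799 kept their side of the threshold, 57 lost the call and 24 gained one. The sign changed in 0 called values and in 5 uncalled values, which are among the 799. Over all genes, the share of calls that were higher at S1 to S5 was 35.9%, 45.8%, 65.9%, 93.4% and 83%. It was 48.8%, 56.4%, 56.6%, 79.8% and 74.6% under upper quartile scaling, and 57.5%, 60%, 54.8%, 68.2% and 61.8% after quantile normalization. For blade from S3 to S4 it was 24.5%, 46.9% and 51.9% in that order, for LJ from S2 to S3 63.9%, 46% and 40.5%, for LJ from S3 to S4 35.8%, 46.7% and 47.1%, and for the tissue difference at S5 minus S1 84.7%, 72% and 50.3%. The median over all genes of the blade change from S3 to S4 went from -0.25 to 0.02 and 0.11. The paired fit called over 1.5 times more of all genes in 10 of 22 contrasts, and the fit on only the groups compared called over 1.5 times fewer in 18, with 0 for LJ minus blade at S4 (2881 at an unadjusted p under 0.05). With 2 libraries a group and unknown depth, a gene that was not called is not shown to be equal.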
